A study of Mus musculus with 6 samples.

Results

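The genes described here are 10 genes of bone morphogenetic protein (BMP) and transforming growth factor beta (TGF-beta) signaling in endothelial cells of mouse bone marrow. They are the ligand genes Tgfb1, Bmp4 and Bmp6, the receptor genes Eng, Acvrl1, Bmpr2, Tgfbr1 and Tgfbr2, and the target genes Smad6 and Id1. They were picked by symbol as genes of the pathway, with earlier results of these data known, and all 10 were found among the 22180 genes that a probe set of the array names alone. Each gene took its brightest such probe set by the mean over the 6 arrays, and each of the 10 had 1. All arrays came from male C57BL/6J mice and held RNA of 5000 endothelial cells sorted from marrow. The diabetic group had 3 arrays, from mice in which a high fat diet had brought on diabetes, and 3 arrays were nondiabetic. The diet text on the labels, 60 kcal% fat for 4 months, stands on both groups alike, so the diet of the nondiabetic mice is not settled by them, and the age of the mice is not given. The sources used here name no marker gate of the sort and no mouse behind each array, so p-values measure the spread between the arrays alone, part of which may be technical.

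Ligands of this family bind pairs of type I and type II receptors, serine and threonine kinases that phosphorylate SMAD proteins, which enter the nucleus with Smad4. TGF-beta ligands signal through the type II receptor Tgfbr2 and the type I receptor Tgfbr1. In endothelium, circulating BMP ligands signal through the type I receptor Acvrl1 with Bmpr2 and the co-receptor endoglin (Eng), and loss of either Eng or Acvrl1 underlies hereditary hemorrhagic telangiectasia in people. Id1, an inhibitor of basic helix-loop-helix transcription factors, and Smad6, an inhibitory SMAD that limits BMP signals, are standard targets of the BMP branch. In marrow, TGF-beta is known for holding blood stem cells in quiescence, and megakaryocytes are a rich source of it.

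None of the 10 genes passed the test for a difference between diabetic and nondiabetic cells. The largest differences were those of Tgfbr2 and Bmpr2, with lower means in diabetic cells by log2 differences of -0.38 and -0.32, and of Bmp6, with a higher mean by 0.38. The place of Bmpr2 among them depended on the probe set. Another, brighter one, whose annotation carries a further name, differed by -0.17. Eng and Acvrl1 differed by 0.012 and 0.050. The groups lay fully apart for Bmp6 and Bmp4 and overlapped for the other genes. The limma adjusted p over all 13308 tested genes was 0.997 for each of the 10 genes. At an adjusted p under 0.05, limma called 1 gene of all those tested, 0.00751% of them, and 0 of the 10. At an unadjusted p under 0.05 it held 4.25% of all tested genes and again 0 of the 10. Every diabetic array exceeded every nondiabetic array for 2 of the 10 genes and for 5.28% of all tested genes, and lay below them for 0 of the 10 and for 2.67% of all. Of these 2, Bmp4 was dim. Its nondiabetic mean lay below the level under which genes were left out, and its diabetic arrays carried it past.

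The upstream sequences of the 3 genes with the largest differences, none of which passed the test, are shown for the letters that SMAD proteins are known to bind. RefSeq (GRCm38.p6) gave windows for 8 of the 10 genes, and each window here is the 250 bases before the annotated start, on the gene's strand. Id1 and Acvrl1 had no window and were not searched. Capitals mark GGCGCC, a GC-rich element of BMP-responsive SMADs, and GTCTG or its reverse complement CAGAC, which holds the core bound by Smad3 and Smad4. Bmp6 lies on the plus strand at chr13:38345466-38345715, Bmpr2 on the plus strand at chr1:59764029-59764278 and Tgfbr2 on the minus strand at chr9:116175364-116175613.

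Bmp6: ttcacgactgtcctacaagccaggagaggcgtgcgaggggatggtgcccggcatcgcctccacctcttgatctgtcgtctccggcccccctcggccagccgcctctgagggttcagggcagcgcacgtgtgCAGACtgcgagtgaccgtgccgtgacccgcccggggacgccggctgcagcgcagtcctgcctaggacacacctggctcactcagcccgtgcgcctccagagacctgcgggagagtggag

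Bmpr2: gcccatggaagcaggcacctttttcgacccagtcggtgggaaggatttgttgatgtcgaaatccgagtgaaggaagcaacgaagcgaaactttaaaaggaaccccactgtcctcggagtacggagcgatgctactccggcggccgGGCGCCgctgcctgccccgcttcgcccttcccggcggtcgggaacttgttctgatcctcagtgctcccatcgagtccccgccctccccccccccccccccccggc

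Tgfbr2: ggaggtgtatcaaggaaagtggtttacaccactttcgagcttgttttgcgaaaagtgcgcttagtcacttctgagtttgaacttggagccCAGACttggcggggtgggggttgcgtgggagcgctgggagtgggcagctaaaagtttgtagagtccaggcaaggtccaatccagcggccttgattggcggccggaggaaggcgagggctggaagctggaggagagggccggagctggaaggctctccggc

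Both strands were searched. The Bmp6 window held CAGAC at -119 and the Tgfbr2 window held it at -160, counted from the start site to the first base of the match. Eng, the gene with the smallest difference, held GTCTG at -127 and CAGAC at -214, and a second Tgfbr1 window held CAGAC at -203. The Bmpr2 window held GGCGCC at -105, and of the other members' windows that of Tgfbr1 held it at -233. GGCGCC stood in 9.59% and GTCTG or CAGAC in 42.2% of 32851 such windows, of which a gene can have more than 1. The full palindrome GTCTAGAC stood in 0.167% of all windows and in no window of the members. GGAGCC or GGCTCC, another GC-rich form whose matches here overlapped no other match, stood in 26.0% of all windows and in those of Tgfbr1, Tgfb1, Smad6, Tgfbr2 and Bmp4. The members' windows had GC contents from 52.8% to 75.2%, against a median of 52.4% over all, and these matches are a description of letters, not of binding.

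Before the results, the arrays were compared on markers of the cells a marrow sort can hold. All 20 endothelial markers, with Cdh5 (VE-cadherin) the brightest, lay above the limit for dim genes, a log2 level of 5.07, on all 6 arrays. The mean of the 19 that are not described here ran from 8.78 to 9.44 in diabetic and from 8.77 to 9.29 in nondiabetic arrays. Diabetic replicate 1 (9.44), nondiabetic replicate 2 (9.29) and nondiabetic replicate 1 (9.10) stood above the other arrays, at 8.77 to 8.79. Of 14 sinusoidal markers 12 had higher means in diabetic cells, with list means of 8.38 to 9.01 against 7.89 to 8.08, and of 16 arteriolar markers 15 had lower means, with 7.36 to 8.01 against 7.74 to 8.25. Blood cell signal was present in both groups. The list means were 7.15 to 7.26 against 6.76 to 7.01 for 12 monocyte and macrophage markers, 7.61 to 7.71 against 7.10 to 7.42 for 10 neutrophil markers and 6.95 to 7.37 against 6.65 to 6.83 for 10 B lymphoid and plasma cell markers. For 12 megakaryocyte and platelet markers they were 7.73 to 8.75 against 7.47 to 8.41, highest in replicate 3 of both groups. The stromal, pericyte, erythroid and basophil list means overlapped between the groups, with differences of -0.065, 0.036, -0.056 and 0.051. No measured marker of the megakaryocyte, erythroid or pericyte lists lay below the limit on every array. In other lists 6 of 15 stromal, 5 of 16 neutrophil and 3 of 17 monocyte and macrophage markers did. So did 2 of 12 B lymphoid and plasma cell, 2 of 10 mast cell and basophil and 1 of 17 arteriolar markers. The list means hold only the markers whose own mean passed the limit. In bulk RNA, fewer cells of a type and less RNA per cell cannot be told apart.

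**Figure D1:**
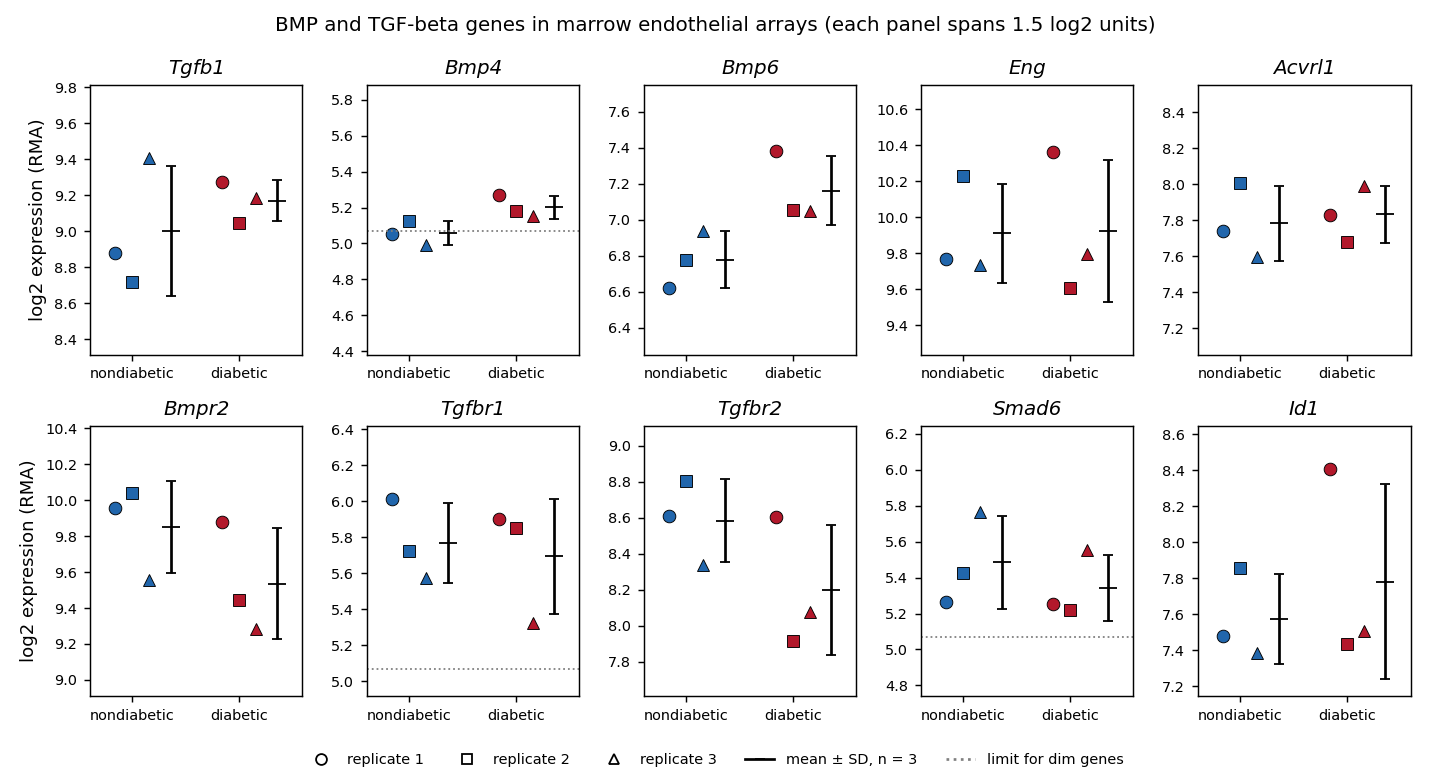
Log2 expression of the 10 genes on each array, nondiabetic in blue and diabetic in red, with the mean and SD of 3 arrays beside the points and the limit for dim genes as a dotted line; every panel spans 1.5 log2 units. The groups are apart for Bmp6 and for Bmp4, which lies at the limit, and diabetic replicate 1 is the highest array for Eng, Id1, Bmp6 and Bmp4.

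Among the ligands, Bmp6 had the smallest unadjusted p of the 10 genes. Bmp6 is made by sinusoidal endothelium of the liver, where it controls hepcidin and with it iron uptake. Its log2 values were 7.38, 7.05 and 7.05 in diabetic replicates 1, 2 and 3 and 6.62, 6.78 and 6.94 in nondiabetic replicates 1, 2 and 3. Every diabetic array was above every nondiabetic array, and the gap between the nearest arrays of the groups was smaller than the range within either. Diabetic and nondiabetic means were 7.16 ± 0.19 and 6.78 ± 0.16 (SD, n = 3 each). They differed by 0.38 (SE 0.17), which is 1.30-fold, with a 95% interval of -0.0082 to 0.77 that is not adjusted (limma adjusted p = 0.997). Leaving out diabetic replicate 1 gave 0.27 and leaving out nondiabetic replicate 1 gave 0.30. The sinusoidal list mean differed by 0.61 in the same direction. It was 9.01, 8.44 and 8.38 in diabetic and 8.03, 8.08 and 7.89 in nondiabetic replicates 1, 2 and 3. Like Bmp6 it was highest in diabetic replicate 1. It was lowest in nondiabetic replicate 3, where Bmp6 was the highest of the nondiabetic arrays. The part of the sinusoidal list in the Bmp6 difference was not tested.

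Bmp4, a ligand that endothelium can release under disturbed flow, was close to the limit for dim genes. Its values were 5.27, 5.18 and 5.15 in diabetic and 5.05, 5.13 and 4.99 in nondiabetic replicates 1, 2 and 3. The groups did not overlap, but 4 of the 6 arrays lay above the limit of 5.07 and the whole span of the 6 was 0.28. Nondiabetic replicates 1 and 3 lay below the limit, as did the nondiabetic mean of 5.06. Bmp4 was thus tested only through its diabetic arrays. The difference was 0.14 (SE 0.14), with an interval of -0.18 to 0.47. Its own within-group SD of 0.066 was lower than that of nearly all tested genes (1.80% had a lower one), and the SE comes from a variance moderated towards that of the other genes. A level this low can hide a larger change.

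Tgfb1, the main TGF-beta ligand of blood and platelets, did not separate the groups. Its values were 9.27, 9.05 and 9.19 in diabetic and 8.88, 8.72 and 9.41 in nondiabetic replicates 1, 2 and 3. Nondiabetic replicate 3 was the highest of all 6 arrays and nondiabetic replicate 2 the lowest. The difference was 0.17 (SE 0.21), with an interval of -0.31 to 0.64, and it ran from 0.026 without nondiabetic replicate 2 to 0.37 without nondiabetic replicate 3. The megakaryocyte and platelet mean stood at 8.41 in nondiabetic replicate 3, against 7.70 and 7.47 in nondiabetic replicates 1 and 2. In diabetic replicates 1, 2 and 3 that mean was 7.75, 7.73 and 8.75, and its part in the Tgfb1 values was not tested.

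Of the endothelial receptors of circulating BMP ligands, Eng and Acvrl1 had the smallest differences of the 10 genes. Eng, the co-receptor that marks endothelium, had values of 10.36, 9.61 and 9.80 in diabetic and 9.77, 10.23 and 9.74 in nondiabetic replicates 1, 2 and 3. Diabetic replicate 1 was the highest and diabetic replicate 2 the lowest of all 6, so the diabetic range of 0.76 enclosed every nondiabetic value. The difference was 0.012 (SE 0.24), with an interval from 0.689-fold to 1.47-fold. It had no settled sign: leaving out diabetic replicate 1 gave -0.21, and leaving out nondiabetic replicate 2 gave 0.17. Acvrl1, the type I receptor, stood at 7.83, 7.68 and 7.99 in diabetic and 7.74, 8.01 and 7.60 in nondiabetic replicates 1, 2 and 3. The diabetic range lay inside the nondiabetic one, and the difference of 0.050 (SE 0.17) had an unadjusted interval from 0.786-fold to 1.36-fold. Its sign also changed when single arrays were left out, between -0.043 and 0.16.

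Bmpr2, the type II receptor of the BMP branch, had a lower mean in diabetic cells. Its values were 9.88, 9.45 and 9.28 in diabetic and 9.96, 10.04 and 9.56 in nondiabetic replicates 1, 2 and 3. Diabetic replicates 2 and 3 lay below every nondiabetic array, while diabetic replicate 1 lay above nondiabetic replicate 3. The difference was -0.32 (SE 0.21) or 0.804-fold, with an interval of -0.80 to 0.17. It was -0.49 without diabetic replicate 1 and -0.19 without diabetic replicate 3. The array has another probe set for this gene, whose annotation also carries the name Gm20272, which RefSeq lists as an older name of Bmpr2. There the values were 10.81, 10.81 and 10.66 in diabetic and 11.09, 11.11 and 10.59 in nondiabetic replicates 1, 2 and 3. That probe set differed by -0.17 (SE 0.19), with an interval of -0.60 to 0.26 and a limma adjusted p = 0.997 when it took the place of the first. Both probe sets had the lower mean in diabetic cells, with overlap in each.

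Tgfbr2, the type II receptor of TGF-beta, had the same order of groups. Its values were 8.60, 7.92 and 8.07 in diabetic and 8.61, 8.80 and 8.34 in nondiabetic replicates 1, 2 and 3. As for Bmpr2, diabetic replicates 2 and 3 lay below all nondiabetic arrays and diabetic replicate 1 did not. Diabetic and nondiabetic means were 8.20 ± 0.36 and 8.58 ± 0.23 (SD, n = 3 each). They differed by -0.38 (SE 0.22), which is 0.766-fold, with an interval of -0.89 to 0.12. It was -0.59 (SE 0.19) without diabetic replicate 1, -0.58 (SE 0.19) with array weights and -0.24 (SE 0.24) without diabetic replicate 2. That is a spread past 1.5 times the value on all arrays in both directions. The lowest limma adjusted p that any of the 10 genes reached under any alternative was 0.527, for Tgfbr2, so no call followed.

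Tgfbr1, the type I receptor that Tgfbr2 activates, had low values, above the limit for dim genes on all 6 arrays. They were 5.90, 5.85 and 5.33 in diabetic and 6.01, 5.73 and 5.57 in nondiabetic replicates 1, 2 and 3. Diabetic replicate 3 alone lay under the nondiabetic range. The difference was -0.076 (SE 0.21), with an interval of -0.56 to 0.41, and it was 0.11 without diabetic replicate 3.

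**Figure D2:**
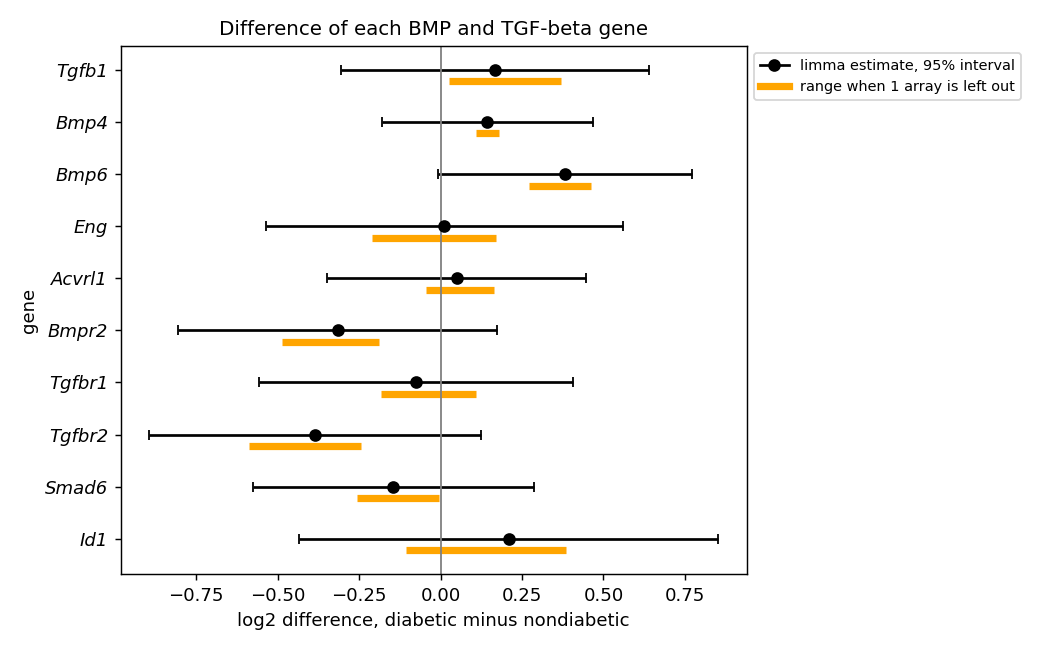
Log2 difference, diabetic minus nondiabetic, of each gene as a point with its 95% interval from limma, not adjusted, and in orange the range of the difference when each array in turn was left out. All 10 intervals include 0, that of Bmp6 by the least (-0.0082 to 0.77), and the orange ranges of Eng, Acvrl1, Tgfbr1 and Id1 lie on both sides of 0.

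Neither BMP target passed the test. Id1 had values of 8.41, 7.43 and 7.50 in diabetic and 7.48, 7.86 and 7.38 in nondiabetic replicates 1, 2 and 3. Diabetic replicate 1 stood well above the other 5 arrays, and the other diabetic arrays lay inside the nondiabetic range. The difference was 0.21 (SE 0.28), with an interval from 0.740-fold to 1.81-fold, and it was -0.10 without diabetic replicate 1. The within-group SD of Id1, 0.42, was the largest of the 10 genes and exceeded that of 86.2% of tested genes. Smad6 was low but above the limit on all 6 arrays, with values of 5.25, 5.22 and 5.55 in diabetic and 5.26, 5.43 and 5.77 in nondiabetic replicates 1, 2 and 3. The Smad6 groups overlapped, and its difference of -0.14 (SE 0.19) shrank to -0.0036 without nondiabetic replicate 3. The opposite signs of Id1 and Smad6 rested on diabetic replicate 1, without which both had lower diabetic means, by -0.10 each.

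The values of Eng, Bmpr2, Tgfbr2 and Id1 ran alongside the endothelial marker mean of the array, while those of Acvrl1 and Tgfbr1 did so less. Diabetic replicate 1 and nondiabetic replicates 1 and 2, the arrays with the highest endothelial means, also had the highest values of Bmpr2 and Tgfbr2. For Eng and Id1, diabetic replicate 1 was first and nondiabetic replicate 2 second, as in the endothelial mean. Below these the order differed. Diabetic replicate 3, at 9.80 for Eng and 7.50 for Id1, lay above nondiabetic replicate 1, at 9.77 and 7.48, though its endothelial mean was lower. Over the 10 genes, 8 lay above their group's mean in diabetic replicate 1, 1 in diabetic replicate 2 and 3 in diabetic replicate 3. In nondiabetic replicates 1, 2 and 3 these counts were 3, 6 and 3. A fit with the endothelial mean as a covariate, added after seeing the data, lowered the SE from 0.24 to 0.16 for Eng, from 0.28 to 0.16 for Id1, from 0.21 to 0.14 for Bmpr2 and from 0.22 to 0.14 for Tgfbr2. It left the SE at 0.17 for Acvrl1, whose value in diabetic replicate 3 was its second highest, and moved it from 0.21 to 0.20 for Tgfbr1. The SE changed little for the remaining genes as well. It went from 0.170 to 0.169 for Bmp6, from 0.141 to 0.137 for Bmp4 and from 0.187 to 0.179 for Smad6. For Tgfb1 it rose from 0.205 to 0.208. In that fit the differences of Eng, Id1, Bmpr2 and Tgfbr2 were 0.059, 0.27, -0.27 and -0.34, and limma called 0 of the 10 genes. The part of the endothelial share of the RNA in these values was not tested beyond this fit.

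**Figure D3:**
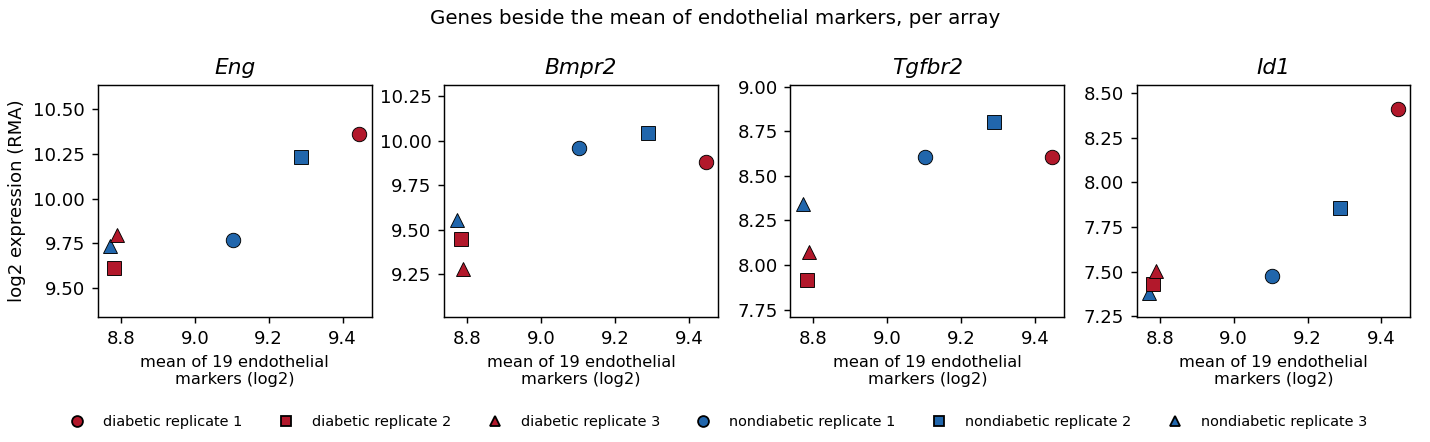
Log2 expression of Eng, Bmpr2, Tgfbr2 and Id1 on each array against the mean of 19 endothelial markers that leave these genes out, diabetic arrays in red and nondiabetic in blue. The genes shown are those whose SE fell most with that mean as a covariate. The 3 arrays with marker means of 9.10 to 9.44 hold the highest Bmpr2 and Tgfbr2 values, and among the 3 arrays at 8.77 to 8.79 the nondiabetic one is the highest for both.

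The remaining genes of the pathway were taken from lists by role, and 0 of the 96 tested genes in them other than the 10 above were called by limma at an adjusted p under 0.05, while 2, Bambi and Tgfbi, had an unadjusted p under 0.05, against 4.25% of all tested genes. Of these 96, 54 had higher and 42 lower means in diabetic cells, with a median difference of 0.016, where all tested genes had a median of 0.019 and 54.0% of them were higher. The groups lay apart upward for 3 and downward for 2 of the 96, against 5.28% and 2.67% of all tested genes, so these counts were not above the background. The 2 downward genes, Nog and Sostdc1, lay near the limit for dim genes.

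Of 15 other ligands tested, 7 had higher and 8 lower means, with a median difference of -0.010. Tgfb2, a TGF-beta isoform of vessels and stroma, stood at 6.72 ± 0.13 in diabetic and 7.32 ± 0.79 in nondiabetic cells (SD, n = 3 each). The nondiabetic mean was carried by replicate 2, at 8.21, where the other nondiabetic arrays were at 6.70 and 7.05. Inhbb, an activin subunit, differed by 0.38 (SE 0.22) and Gdf11 by 0.37 (SE 0.23). Bmp1, a protease that carries a BMP name and cleaves procollagen and BMP antagonists, was higher on all diabetic arrays, by 0.20 (SE 0.14). Of the circulating ligands, Gdf2 lay at 5.08 and 5.09, near the limit, and Bmp10 was left out as dim.

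The 7 other receptors tested had a median difference of -0.010, with 3 higher and 4 lower. Rgmb, a BMP co-receptor, stood at 6.47 ± 0.40 against 6.02 ± 0.21 (SD, n = 3 each), and Acvr1b, an activin type I receptor, differed by 0.29 (SE 0.20). Acvr2a, a type II receptor shared by activins and BMPs, differed by -0.40 (SE 0.28), with 7.27, 6.38 and 6.64 in diabetic and 7.29, 7.48 and 6.69 in nondiabetic replicates 1, 2 and 3. Acvr2a too was highest in the 3 arrays with the most endothelial marker signal. The BMP type I receptor genes Bmpr1a and Bmpr1b were left out as dim.

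Among 6 other SMAD genes, 4 had higher and 2 lower means and the median difference was 0.10. Smad3, which carries TGF-beta signals, stood at 6.40 ± 0.49 against 6.93 ± 0.32 (SD, n = 3 each), with diabetic replicate 3 the lowest array at 5.85. Smad5, of the BMP branch, differed by 0.14 (SE 0.16), and the shared partner Smad4 by 0.18 (SE 0.26). Smad9 was left out as dim.

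The 18 intracellular regulators had 10 higher and 8 lower means, with a median of 0.037. Bambi, a decoy receptor without kinase activity that blunts both branches, stood at 7.39 ± 0.29 against 6.80 ± 0.43 (SD, n = 3 each). Its groups overlapped, and it differed by 0.59 (SE 0.25). Smurf1, a ubiquitin ligase that marks BMP SMADs and receptors for degradation, had 7.43, 6.88 and 7.14 in diabetic and 6.72, 6.85 and 6.71 in nondiabetic replicates 1, 2 and 3. Its diabetic arrays all lay above the nondiabetic ones, with replicate 2 of the groups nearly level, and the difference was 0.39 (SE 0.18). Zfyve9, an anchor that presents SMADs to the receptor, differed by -0.60 (SE 0.42), and Fkbp1a, which holds type I receptors inactive, by -0.11 (SE 0.16).

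Of 14 other BMP targets, 7 had higher and 7 lower means, with a median of -0.011. The Id1 relatives Id2, Id3 and Id4, named here for their kinship and not by the naming rule, differed by -0.29 (SE 0.20), 0.0074 (SE 0.24) and 0.022 (SE 0.14). Tmem100, an endothelial target of Acvrl1 signals, stood at 5.42 ± 0.35 against 5.92 ± 0.30 (SD, n = 3 each), and Hey1, shared with the Notch pathway, differed by -0.45 (SE 0.26). Stmn2, a stathmin family gene, differed by -0.60 (SE 0.27), and Cdkn1a, a cell cycle inhibitor, by 0.50 (SE 0.45). Hey1 is also in the arteriolar list, whose mean differed by -0.36, and the part of that list in these values was not tested. Without diabetic replicate 1 the median of the BMP targets was -0.16.

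The 19 other TGF-beta targets had 14 higher and 5 lower means, with a median of 0.12 against 0.019 for all tested genes. Tgfbi, a matrix protein named for its induction by TGF-beta, had values of 7.63, 7.43 and 7.26 in diabetic and 6.96, 7.04 and 6.87 in nondiabetic replicates 1, 2 and 3. The groups did not overlap, and the difference was 0.48 (SE 0.16), with an unadjusted p = 0.016 that did not survive the adjustment (limma adjusted p = 0.997). Monocytes express Tgfbi as well, and the monocyte list mean differed by 0.33 with the groups apart, and its part in the Tgfbi difference was not tested. Snai2, a repressor linked to mesenchymal change, differed by 0.55 (SE 0.26) and Tagln, a smooth muscle protein, by 0.39 (SE 0.20), both with overlap. The mean of the pericyte and smooth muscle list, which holds Tagln, differed by 0.036, and the part of these cells was not tested. The median of the TGF-beta targets ranged from 0.014 without nondiabetic replicate 3 to 0.29 with a stricter limit for dim genes, so its size is not settled.

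Of 24 genes that bind, store or activate ligands outside the cell, 15 had higher and 9 lower means, with a median of 0.020. Bgn (biglycan), a matrix proteoglycan that binds TGF-beta, stood at 9.77 ± 0.41 against 9.21 ± 0.34 (SD, n = 3 each), with overlap. The BMP antagonist genes Nog and Sostdc1 lay lower on all diabetic arrays, by -0.22 (SE 0.16) and -0.13 (SE 0.14). Their levels were 5.02 and 5.12 in diabetic cells, at the limit for dim genes. Every diabetic array lay below that limit for Nog, which was tested only through nondiabetic replicates 1 and 2, at 5.44 and 5.21.

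**Figure D4:**
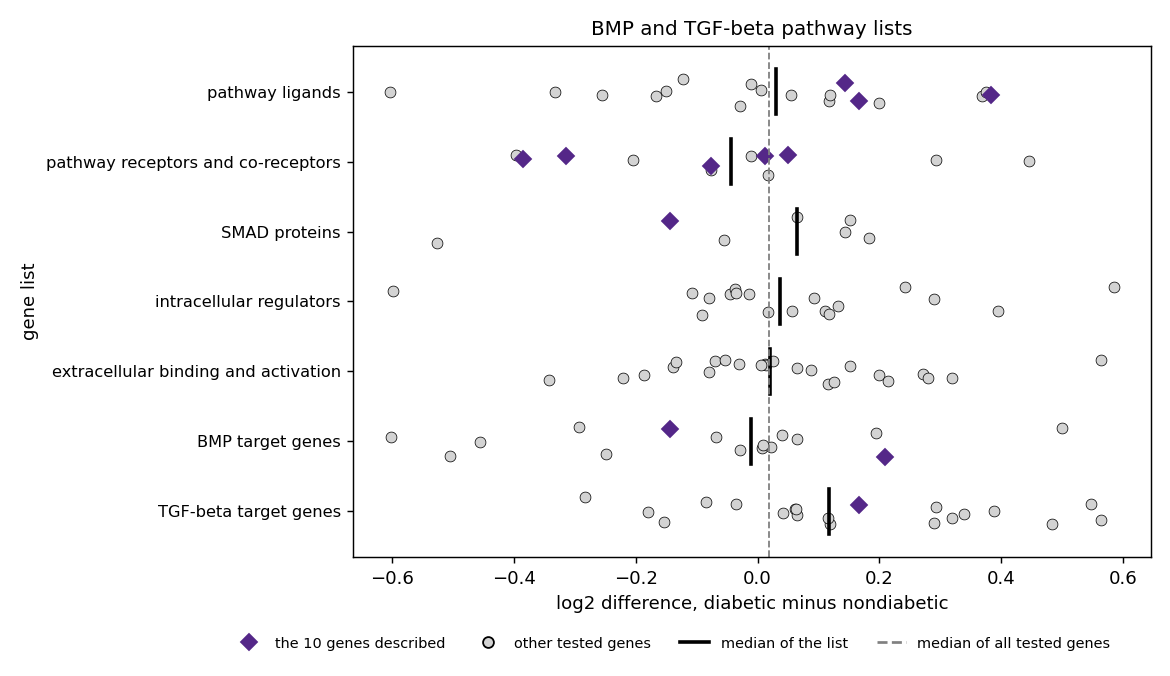
Log2 difference, diabetic minus nondiabetic, of every tested gene in 7 pathway lists, with the 10 genes described as violet diamonds, list medians as black bars and the median of all tested genes, 0.019, as a dashed line; a gene in several lists is drawn in each. Points of every list lie on both sides of 0, and no gene shown was called.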

How the data were processed

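The deposited values are log2 expression, which the authors computed by RMA, per the submitters' processing notes. RMA removes background, brings all arrays to one distribution and combines probes into probe sets. Its software was not given in the sources used here. RNA was amplified with a whole transcriptome kit, per the labels' protocols, which may compress differences. The table held 41345 probe sets, of which 23521 named 1 gene in the platform annotation, 1814 several and 16010 none. Array medians ran from 5.21 to 5.28.

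Genes with a mean under the 40th percentile, 5.07, were left out as dim, 8872 of 22180. The groups were compared with limma 3.58.1 (R 4.3.3, lmFit, eBayes, no covariates) over the 13308 others, with Benjamini-Hochberg adjustment and a threshold of 0.05. The procedure was checked on simulated data with planted changes larger than any difference of the 10 genes. That check does not cover changes of their size. Over tested genes the median within-group SD was 0.24 and the median SE 0.19, and the number of arrays limits the precision. The genes and lists were chosen with earlier results of these data known. Named from each pathway list were the 3 other tested genes with the smallest p, the brightest gene (in some lists one of the 10) and genes whose groups were apart; Gdf2, the Id1 relatives and pathway genes left out as dim were named outside this rule, for their role; marker lists are given by their means. Alternatives were other limits for dim genes, the mean of probe sets, every probe set, quantile normalization, median centring, array weights, trended and robust variances, each array left out and a replicate block. A covariate fit and another Bmpr2 probe set were added after seeing the data.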

Additional observations from a re-analysis of the deposited data

How the results depend on the processing

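In the 16 alternatives run on all results, 0 of the 10 genes were called at an adjusted p under 0.05. Unadjusted p-values of the alternatives are not given here. Of all tested genes 1 was called in each alternative except 2: 0 where the limit for dim genes was the 60th percentile, and 0 where nondiabetic replicate 3 was left out, so the range over left-out arrays was 0 to 1. For 6 genes (Bmpr2, Tgfbr2, Tgfb1, Bmp4, Bmp6 and Smad6) the sign held in every alternative that gave a value, and for 4 it did not. The difference turned to -0.016 for Eng with quantile normalization again. With array weights it turned to -0.20 for Eng, -0.051 for Acvrl1 and -0.027 for Id1. With single arrays left out it ran from -0.21 to 0.17 for Eng, -0.043 to 0.16 for Acvrl1, -0.18 to 0.11 for Tgfbr1 and -0.10 to 0.38 for Id1. The cause was not tested. Tgfbr1, Bmp4 and Smad6 gave no value at the 60th percentile, where they were left out as dim. Whether the replicate numbers pair the arrays is not settled. Deviations of same-numbered arrays correlated across genes at -0.036, -0.064 and 0.016, and only diabetic replicate 3 correlated best with its own number in the other group. With 3 arrays a group, such correlations cannot exclude a pairing. The fit with the replicate block called 1 gene of all tested and 0 of the 10. With 3 arrays a group, the median SE over all tested genes was 0.19. In the main comparison, before these alternatives, the unadjusted interval of the difference included 0 for each of the 10 genes. Intervals of the alternatives are not given here. Whether the spread between arrays accounts for the differences of the 10 genes was not tested.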
